A study of Mus musculus with 30 samples.

Results

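Expression of 10 leukocyte genes was examined in mammary tumours of mice treated with the heme oxygenase-1 (HO-1) inhibitor KCL-HO-1i, alone or with chemotherapy. Hcls1, Lcp2, Spic and Lilr4b were chosen because they were higher with KCL-HO-1i, past an adjusted p of 0.05 in the mean effect of the inhibitor over vehicle, 5-FU and gemcitabine, the 3 backgrounds on which it was given. Ptprc, Itgb2, Laptm5, Coro1a, Tyrobp and Vav1 were taken beside them as general leukocyte genes. These 10 genes were matched by symbol among the 21841 genes of the table, and 10 of 10 were among the 13663 that passed the expression filter. Spic and Lilr4b, almost without reads in tumours not given KCL-HO-1i, passed through the groups in which they were high, so their presence among the tested genes is not a result.

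RNA-seq was performed on whole tumours of the FVB/N-Tg(MMTV-PyVT)634Mul/J mouse line, in which the mammary-directed MMTV promoter drives the polyoma middle T antigen so that tumours arise spontaneously in the mammary epithelium. All groups shared this strain and the genotype entry WT, and ages were not given in the labels. The 30 libraries formed 6 groups of 5 mice, 3 without the inhibitor (vehicle, titled Control, then 5-FU and Gemcitabine) and 3 with it, namely KCL-HO-1i alone, the combination KCL-HO-1i/5-FU, and the combination KCL-HO-1i/Gemcitabine. Per the labels, the daily dose of KCL-HO-1i was 25 µmol/kg, while 40 mg/kg of 5-FU was given per 4 days and 64 mg/kg of gemcitabine per 7 days, all intraperitoneally, and treatment lasted 72 h. In the study's own text the time is shorter and the dose of gemcitabine lower. The comparisons ask how the inhibitor, each chemotherapy and their combination altered RNA levels in the tumour microenvironment (TME).

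Library totals ran from 10067577 to 13622264 counts, and levels are given as CPM, counts scaled to the normalised library size. A floor of 3 reads corresponded to between 0.215 and 0.302 CPM, for counting error only. The tumours held abundant RNA of mammary epithelium, with a summed level of 8 markers between 3615 and 22684 CPM, and macrophage markers were read in each library (14 genes, 261.1 to 2862 CPM in sum). B cell markers were near 0, with Ms4a1 and Cr2 at 0 in 23 and 28 of 30 libraries. Skeletal muscle markers reached 11155 CPM in KCL-HO-1i/Gemcitabine replicate 2 and 3889 CPM in KCL-HO-1i replicate 4, against at most 1455 CPM in the other libraries. Each mouse also carries a code number in the labels, of unstated meaning, and the 13 codes were spread unevenly over the groups.

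Hcls1 and Lcp2 act beneath receptors of the leukocyte surface. Hcls1 (HS1) is a cortactin-like protein that is phosphorylated after receptor engagement and steers branched actin, and Lcp2 (SLP-76) is the adaptor that assembles Vav1 and phospholipase C-gamma after T cell, Fc and collagen receptor signalling. Spic is an ETS family transcription factor related to Spi1 (PU.1), known for its role in the red pulp macrophages that clear aged erythrocytes and for its induction by heme, the substrate of HO-1. Lilr4b belongs to the immunoglobulin-like receptors of myeloid and mast cells. Among the comparison genes, Ptprc encodes the CD45 phosphatase, Itgb2 the shared beta chain of leukocyte integrins, Laptm5 a lysosomal membrane protein, Coro1a an actin-binding coronin, Tyrobp the adaptor DAP12 and Vav1 a Rac exchange factor.

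On GRCm38, Hcls1 is at chr16:36934983-36963212 on the plus strand and Lcp2 at chr11:34046920-34092295 on the plus strand. Spic lies at chr10:88674772-88685015 on the minus strand, and Lilr4b at chr10:51480632-51486703 on the plus strand, 4252 bases from its paralog Lilrb4a. Promoter entries of RefSeq for GRCm38.p6 matched 8 of the 10 genes, with none for Itgb2 and Tyrobp. Stretches from 140 to 21 bases before the RefSeq start are given for the 4 chosen genes. They are printed 5′ to 3′ on the strand of the gene. The same rule chose these genes, and the stretches overlap no annotated exon. They span chr16:36934843-36934962 for Hcls1, chr11:34046788-34046907 for Lcp2, chr10:88683044-88683163 for Spic and chr10:51480472-51480591 for Lilr4b. The stretch of Spic, like its RefSeq start, lies within the gene span given above and not upstream of it. Capitals mark a match to any of 4 motifs searched on both strands.
Hcls1: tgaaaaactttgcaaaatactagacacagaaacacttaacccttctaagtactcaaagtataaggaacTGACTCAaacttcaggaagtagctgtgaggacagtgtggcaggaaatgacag
Lcp2: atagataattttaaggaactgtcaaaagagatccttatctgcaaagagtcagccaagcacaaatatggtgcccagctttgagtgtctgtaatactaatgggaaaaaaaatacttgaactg
Spic: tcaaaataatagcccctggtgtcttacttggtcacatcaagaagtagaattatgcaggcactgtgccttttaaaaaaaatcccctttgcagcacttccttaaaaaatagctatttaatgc
Lilr4b: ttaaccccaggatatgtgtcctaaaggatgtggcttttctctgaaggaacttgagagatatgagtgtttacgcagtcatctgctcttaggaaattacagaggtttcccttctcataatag

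The motifs were the PU box of Spi1 and Spic (GAGGAA), an ETS type site (CCGGAAGT), the antioxidant response element (TGACNNNGC) and the AP-1 site (TGANTCA), of which the last pair can overlap in their first letters. In windows of 300 bases these were held by 28.3%, 3.89%, 12.4% and 7.81% of 32851 RefSeq promoters. Hcls1 held the AP-1 letters TGACTCA at -72 to -66 from its start. Lcp2 held a PU box on the opposite strand at 5 to 10 bases after its start, outside the printed stretch. Spic and Lilr4b had none of these letters in their windows, and in the comparison genes the PU box was present in Ptprc, Laptm5 and Vav1. These matches are descriptions of letters, and no binding was measured.

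Hcls1 was higher with KCL-HO-1i in each background. Per library, in replicate order, its level was 14.1, 12.6, 6.68, 18.9 and 8.48 CPM in vehicle and 22.5, 25.6, 38.5, 25.5 and 21.0 CPM with KCL-HO-1i. With 5-FU it was 18.7, 21.8, 22.7, 7.82 and 19.8 CPM, and with KCL-HO-1i/5-FU 25.8, 31.4, 52.3, 37.9 and 26.0 CPM. With gemcitabine it was 8.25, 14.6, 16.8, 10.9 and 29.6 CPM, and with KCL-HO-1i/Gemcitabine 35.7, 39.6, 33.1, 36.7 and 36.8 CPM. The inhibitor libraries lay above all 5 libraries of their background in each of the 3 pairs (0.747%, 0.937% and 0.695% of all tested genes were separated in this way on vehicle, 5-FU and gemcitabine), and the KCL-HO-1i/Gemcitabine libraries lay closest together. Hcls1 was the only gene of 13663 separated in all 3 pairs (0.00732%). It was also part of what chose the gene, as were its average log2 fold change of 1.08 (SE 0.18) and its values of 1.13 on vehicle, 0.93 on 5-FU and 1.18 on gemcitabine. In bulk tumour RNA, more cells of a type and more RNA per cell cannot be told apart.

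Lcp2, the SLP-76 adaptor, was read at lower levels and overlapped more. It was 3.10, 4.65, 1.85, 4.83 and 4.24 CPM in vehicle and 6.03, 7.60, 12.5, 9.55 and 6.10 CPM with KCL-HO-1i, which did not overlap (0.747% of all tested genes did likewise). With 5-FU it was 5.35, 6.17, 5.98, 6.35 and 6.74 CPM, and with KCL-HO-1i/5-FU 6.33, 9.34, 15.9, 9.63 and 4.70 CPM. With gemcitabine it was 3.18, 3.76, 4.94, 3.41 and 9.64 CPM, and with KCL-HO-1i/Gemcitabine 11.5, 16.9, 8.84, 7.91 and 13.3 CPM. On either chemotherapy the groups overlapped, through low values in KCL-HO-1i/5-FU replicates 1 and 5 and a high value in Gemcitabine replicate 5. Its average log2 fold change was 0.99 (SE 0.19), with 1.16 on vehicle, 0.58 on 5-FU and 1.23 on gemcitabine.

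Spic, the heme-inducible ETS factor, had few reads outside the inhibitor groups. It was 0, 0, 0, 0.170 and 0 CPM in vehicle, 0.335, 0.162, 0.820, 0.0815 and 0.445 CPM with 5-FU and 0.0816, 0, 0.0916, 0 and 0.596 CPM with gemcitabine. It was 0, 0.969, 1.12, 0.597 and 0.825 CPM with KCL-HO-1i, 1.28, 1.04, 5.55, 1.48 and 0.313 CPM with KCL-HO-1i/5-FU and 1.33, 0.704, 0.248, 2.26 and 1.79 CPM with KCL-HO-1i/Gemcitabine. The groups overlapped in each pair, on vehicle through KCL-HO-1i replicate 1, which had no read. Summed over 5 libraries, the reads went from 2 in vehicle to 44 with KCL-HO-1i, a ratio of 21.3 (exact 95% interval 5.56 to 182). They went from 23 to 116 on 5-FU, a ratio of 4.98 (3.16 to 8.17), and from 8 to 78 on gemcitabine, a ratio of 9.45 (4.56 to 22.6). These intervals cover counting error only and not the spread between tumours, and 63 of the 116 reads came from replicate 3.

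Lilr4b, the immunoglobulin-like receptor, was 0, 0.291, 0, 0 and 0 CPM in vehicle, 0, 0.568, 0, 0 and 0.667 CPM with 5-FU and 0, 0.250, 0.366, 0 and 0 CPM with gemcitabine. It was 1.43, 1.19, 2.69, 0.994 and 0.247 CPM with KCL-HO-1i, 0.377, 2.74, 5.64, 0.905 and 0.391 CPM with KCL-HO-1i/5-FU and 2.30, 3.92, 3.72, 0.226 and 1.07 CPM with KCL-HO-1i/Gemcitabine. Every library with the inhibitor had reads of Lilr4b, whereas most libraries without it had none, and the lowest inhibitor libraries still overlapped the highest of their background. Reads went from 4 to 85 on vehicle, a ratio of 20.6 (7.76 to 77.3), from 16 to 122 on 5-FU, a ratio of 7.53 (4.46 to 13.6), and from 7 to 130 on gemcitabine, a ratio of 17.99 (8.49 to 45.6). Of the 31-base words in its exons, 36.7% also occur in Lilrb4a, so reads of this pair may have been split between them. Lilrb4a itself was listed with 1, 14, 2, 4, 4 and 2 reads in the 6 groups and was not tested.

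**Figure D1:**
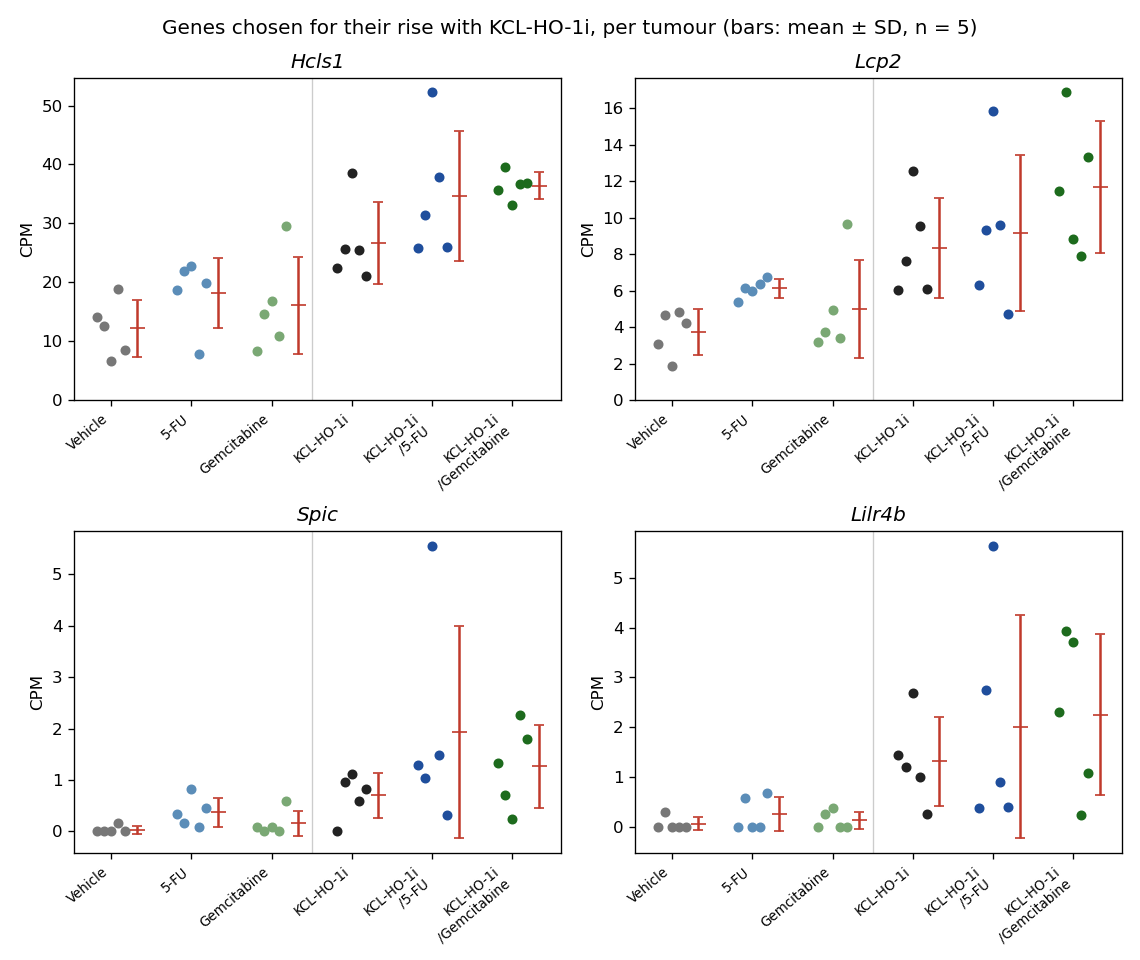
Level in CPM (y axis, linear) of Hcls1, Lcp2, Spic and Lilr4b in each of the 5 tumours of the 6 groups (x axis), with the mean ± SD in red beside each group. The 3 groups with KCL-HO-1i stand right of the vertical line, and in Hcls1 each lies above the libraries of its own background, such as 21.0 to 38.5 CPM against 6.68 to 18.9 CPM in vehicle.

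Just inside and just outside the threshold that chose the 4 genes, values were close. In the inhibitor average 8 genes passed the adjusted p of 0.05 (0.0586% of those tested), 7 of them higher (0.0512%). In order of p these were Hmox1, Hcls1, Slc40a1, Slc11a1, Lilr4b, Gemin5 (the lower gene), Spic and Lcp2, the last with an adjusted p of 0.03132 by edgeR. The next 3, Bin2 (log2 fold change 1.02), Tbxas1 (1.53) and Hpgds (1.07), shared an adjusted p of 0.05197. Average log2 fold changes of Spic (3.14, SE 0.59) and Lilr4b (3.74, SE 0.68) were fitted to few reads. When each library was left out in turn, Hcls1 was past the threshold in 30 of 30 fits, Lilr4b in 22, Spic in 15 and Lcp2 in 11. Each of these fits repeats the contrast that chose the 4 genes on nearly the same libraries. The counts are thus not independent of the choice.

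The 6 general leukocyte genes were also higher with KCL-HO-1i on average, by less, and none passed the threshold of edgeR after adjustment. Ptprc (CD45) was 9.68, 12.9, 5.54, 16.8 and 8.26 CPM in vehicle and 15.4, 29.9, 27.2, 21.98 and 10.1 CPM with KCL-HO-1i. It was 21.1, 21.8, 22.9, 8.31 and 13.5 CPM with 5-FU, and 12.2, 26.5, 43.7, 26.6 and 14.8 CPM with KCL-HO-1i/5-FU. With gemcitabine it was 7.35, 14.02, 21.4, 13.6 and 26.3 CPM, and with KCL-HO-1i/Gemcitabine 27.5, 34.4, 18.2, 20.3 and 29.6 CPM. The groups of Ptprc overlapped in each pair, as did those of the other 5 general genes. Its average log2 fold change was 0.71 (SE 0.21, adjusted p 0.0650 by edgeR).

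Tyrobp (DAP12) had the highest average difference of the 6, at 0.86 (log2, SE 0.24) with an adjusted p of 0.05583 by edgeR, with a median of 23.2 CPM in vehicle and 31.8 CPM with KCL-HO-1i. Coro1a had the smallest p of the 6, with 0.69 (SE 0.19, adjusted p 0.05582 by edgeR), and 15 of its 15 inhibitor libraries exceeded the background mean (true of 0.505% of all genes). Laptm5 gave 0.74 (SE 0.23), Itgb2 0.67 (SE 0.28) and Vav1 0.59 (SE 0.20), with adjusted p from 0.0726 to 0.1493 by edgeR. Thus 0 of 6 were called by edgeR, while 6 of 6 had an unadjusted p under 0.05, as did 13.7% of all tested genes in the higher direction. DESeq2 called 4 of the 6 and limma-voom 2. The count rested on single libraries: it was 6 of 6 without Gemcitabine replicate 5. It was 3 when the fifth replicate of KCL-HO-1i/5-FU was dropped, and 2 when KCL-HO-1i replicate 1 or 5, or the replicate 4 of either combination, was dropped. Gemcitabine replicate 5 held the highest level of its group for 5 of these genes, such as 36.4 CPM of Itgb2 against at most 10.5 CPM in the others, and for Coro1a it came after replicate 3 (41.7 and 45.7 CPM). B cell markers in that replicate 3 summed to 29.8 CPM, against at most 7.57 CPM elsewhere, and the part of this in Coro1a was not tested.

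**Figure D2:**
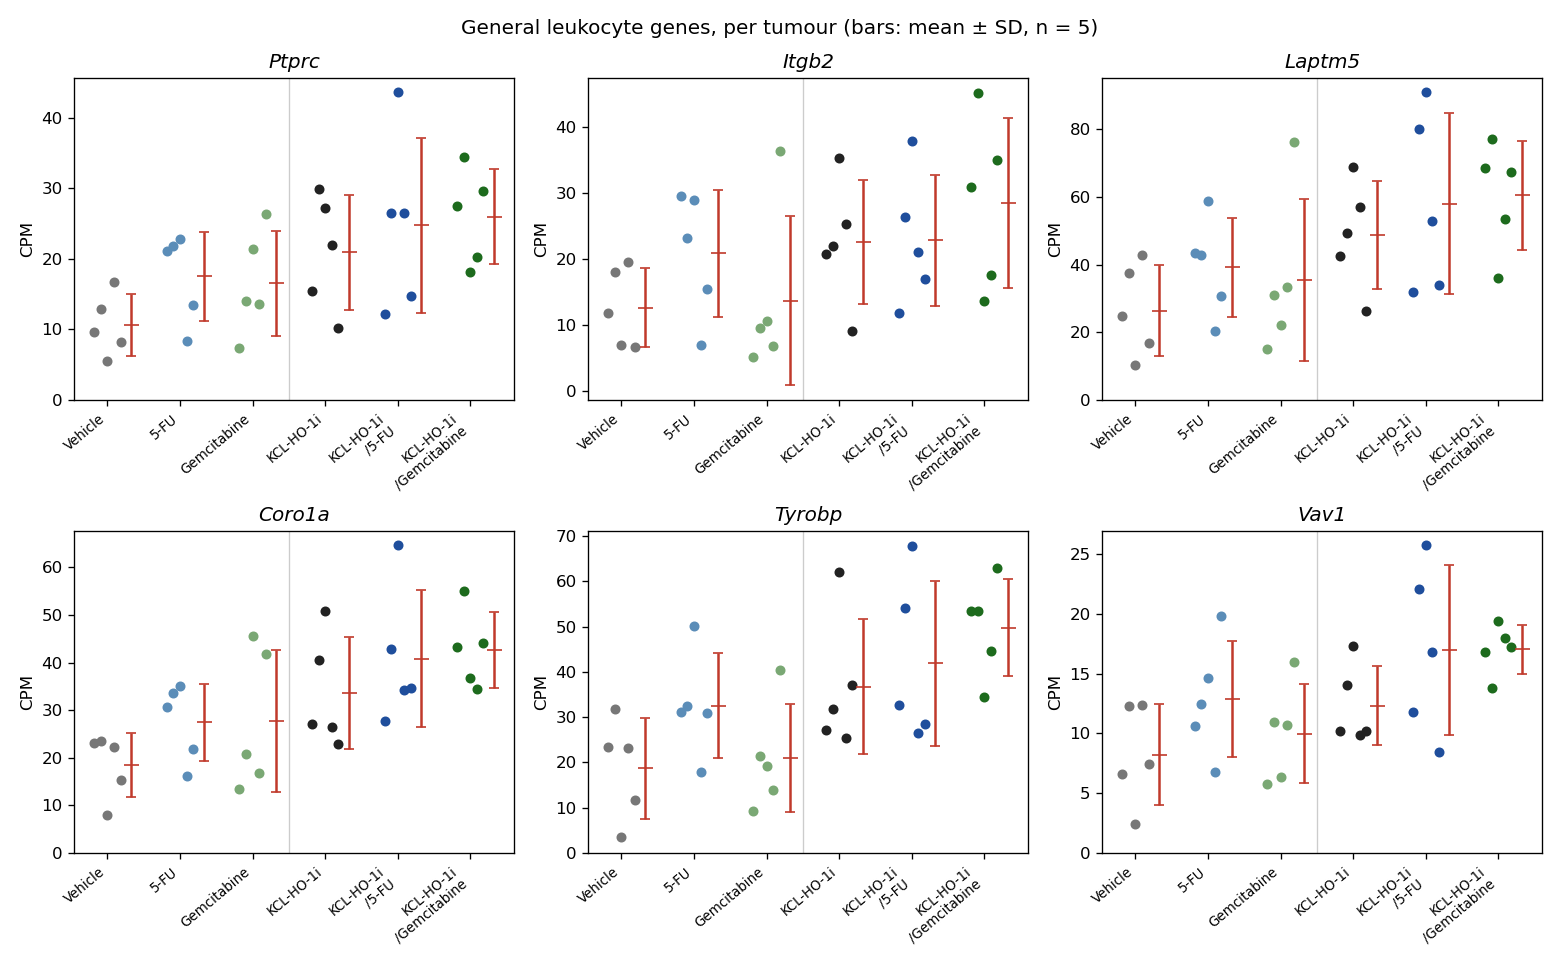
Level in CPM (y axis, linear) of the 6 general leukocyte genes in each of the 5 tumours of the 6 groups (x axis), with the mean ± SD in red. Groups with the inhibitor, right of the line, sit higher on average and overlap those without it, for Itgb2 through a gemcitabine library at 36.4 CPM.

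Within single backgrounds, no gene of the table passed the threshold of edgeR, the 10 leukocyte genes included. On vehicle the 6 general genes had log2 fold changes from 0.58 to 0.98 with a median of 0.88, against a median of all genes of -0.01, and 4 had an unadjusted p under 0.05 (7.36% of all genes, higher). On gemcitabine they ran from 0.63 to 1.25 with a median of 0.77, and 3 had an unadjusted p under 0.05 (6.94%). On 5-FU they ran from 0.13 for Itgb2 to 0.57 for Coro1a with a median of 0.45, and 0 had an unadjusted p under 0.05 by edgeR (6.18%). DESeq2, limma-voom and the other fits also called 0 of these 6 genes within each background.

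Chemotherapy was compared on contrasts other than the inhibitor average that chose Hcls1, Lcp2, Spic and Lilr4b. All members were chosen with earlier results of these data known, and Spic and Lilr4b passed the expression filter through the inhibitor groups. The tests are thus not fully free of the choice. All 10 genes had positive log2 fold changes with 5-FU and with gemcitabine against vehicle, where 50.2% and 55.5% of all genes were positive. Both comparisons share the vehicle libraries and the genes correlate, so these signs are not independent. Of the genes, 0 of 10 passed the threshold of edgeR, DESeq2 or limma-voom, as was true of all genes with edgeR. With 5-FU, Spic went from 2 to 23 reads (log2 fold change 3.13, SE 1.19, unadjusted p 0.01394, adjusted p 0.9988 by edgeR). Lcp2 differed by 0.71 on the log2 scale (SE 0.33, unadjusted p 0.04122, adjusted p 0.9988 by edgeR), and its 5-FU libraries, 5.35 to 6.74 CPM, did not overlap with vehicle, at most 4.83 CPM, a separation that 0.315% of all genes showed. These were the 2 of 10 with an unadjusted p under 0.05, beside 1.65% of all genes in the higher direction. Hcls1 gave 0.58 (SE 0.31) with 5-FU and 0.40 (SE 0.31) with gemcitabine, and overlapped with vehicle in both. With gemcitabine 0 of 10 had an unadjusted p under 0.05 (2.05% of all genes, higher), and the log2 fold changes of the general genes ran from 0.11 for Itgb2 to 0.64 for Ptprc.

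Chemotherapy added to KCL-HO-1i also gave positive values. Against KCL-HO-1i alone, Hcls1 was higher by 0.38 on the log2 scale (SE 0.30) with 5-FU and 0.45 (SE 0.30) with gemcitabine, Lcp2 by 0.13 (SE 0.33) and 0.48 (SE 0.33), and Spic by 1.44 (SE 0.87) and 0.85 (SE 0.86). All 10 genes were positive in both comparisons (51.3% and 54.1% of all genes were). The comparisons share the libraries given KCL-HO-1i alone and the genes correlate, so these signs are not independent. An unadjusted p under 0.05 by edgeR was reached by 0 of 10 (7.47% and 1.20% of all genes, higher). The interaction asks whether the inhibitor effect differs with a chemotherapy present. With 5-FU it was negative for 10 of 10 genes, while 50.6% of all genes were positive. The genes correlate, so these are not 10 separate results. Values ran from -1.69 (SE 1.37) for Spic to -0.18 (SE 0.50) for Vav1, with -0.20 (SE 0.43) for Hcls1. With gemcitabine 5 of 10 were positive (47.7% of all genes were) and Hcls1 stood at 0.05 (SE 0.43). No interaction of these genes had an unadjusted p under 0.05 by edgeR (8.53% and 1.34% of all genes did), and DESeq2 and limma-voom called 0 of 10. The standard errors leave room for interactions of a size similar to the inhibitor effect itself.

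**Figure D3:**
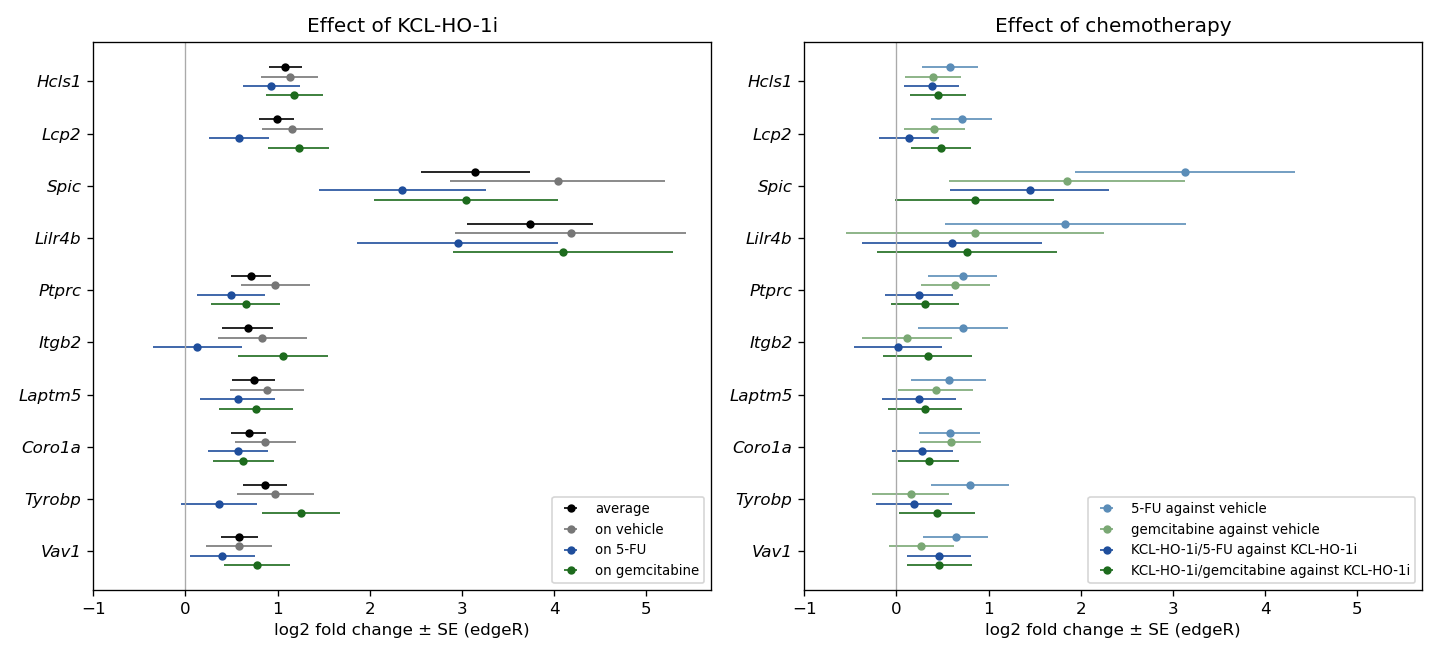
Log2 fold change ± SE from edgeR (x axis) of the 10 genes (y axis) for the effect of KCL-HO-1i, averaged and on each background (left), and for the effect of each chemotherapy, without and with the inhibitor (right). All points are above 0, from 0.02 for Itgb2 with 5-FU added to the inhibitor to 4.18 for Lilr4b on vehicle, and the 4 upper genes in the left panel were chosen on the average shown there.

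The level of general leukocyte RNA differed widely between tumours of a group, and the levels of the chosen genes correlated with it. A leukocyte score, the mean log2 CPM of the 6 general genes, averaged 3.72 ± 0.80 in vehicle, 4.46 ± 0.55 with 5-FU, 4.06 ± 0.73 with gemcitabine, 4.66 ± 0.46 with KCL-HO-1i, 4.87 ± 0.59 with KCL-HO-1i/5-FU and 5.06 ± 0.31 with KCL-HO-1i/Gemcitabine (SD, n = 5). After group means were subtracted, Hcls1 correlated with the score over the 30 libraries at r = 0.912 and rho = 0.850 (permutation p within groups 1e-05, the smallest that 100000 draws can give, and 2e-05). Lcp2 gave r = 0.793 and rho = 0.739 (permutation p 3e-05 and 0.0001). Spic gave r = 0.537 and rho = 0.476 (permutation p 0.00238 and 0.01211), and Lilr4b r = 0.425 and rho = 0.457 (permutation p 0.01894 and 0.01613). Adjusted over the 4 relations, the p of r were 4e-05, 6e-05, 0.003173 and 0.01894, and those of rho 8e-05, 0.0002, 0.01613 and 0.01613, all by permutation. Without the 2 libraries farthest from the median score, Vehicle replicate 3 and Gemcitabine replicate 1, r was 0.887, 0.732, 0.625 and 0.442. That of Lilr4b rested in part on KCL-HO-1i/5-FU replicate 3, without which r was 0.346 with an adjusted permutation p of 0.0571 and rho 0.372 with 0.0502. Its rho was 0.386 (adjusted permutation p 0.0516) without KCL-HO-1i replicate 5, and that of Spic 0.350 (adjusted permutation p 0.0735) without Gemcitabine replicate 5. Lilr4b and Spic have many values at 0, mostly in groups without the inhibitor, and all genes share the depth and composition of their library. The chosen genes and the genes of the score are all leukocyte genes, so a positive r was likely beforehand. How many of all tested genes reach such an r was not tested.

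Relative to the general genes, the difference with the inhibitor was smaller for all 4 chosen genes. It remained larger for Spic and Lilr4b than for Hcls1 and Lcp2. As log2 CPM minus the score, Hcls1 with the inhibitor stood 0.24 above its level in vehicle, 0.56 above 5-FU and 0.31 above gemcitabine, with within-group SDs between 0.13 and 0.35. Lcp2 differed by 0.21, 0.05 and 0.28, with SDs between 0.20 and 0.61. Spic differed by 0.97, 1.27 and 1.20 (SDs between 0.52 and 1.12) and Lilr4b by 1.69, 1.79 and 1.86 (SDs between 0.65 and 1.39). For these genes a library with no reads stood at a fixed -2.61 log2 CPM set by the prior count. Their differences thus depend on that value. For each of them, 1 of 32 alternatives moved the mean difference by at least the within-group SD, and none changed its sign. Of the 15 inhibitor libraries, 8 for Hcls1 and 1 for Lcp2 exceeded the highest library of their background on this scale. With the score as a covariate in the edgeR fit, the average log2 fold changes were 0.55 for Hcls1, 0.44 for Lcp2, 2.15 for Spic and 2.31 for Lilr4b, in place of 1.08, 0.99, 3.14 and 3.74. In that fit none of the 4 kept an adjusted p under 0.05, with 0.07826 for Hcls1 and 0.9916 for the others by edgeR. These are descriptions, since the contrast chose the 4 genes and the score itself is higher in the inhibitor groups.

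**Figure D4:**
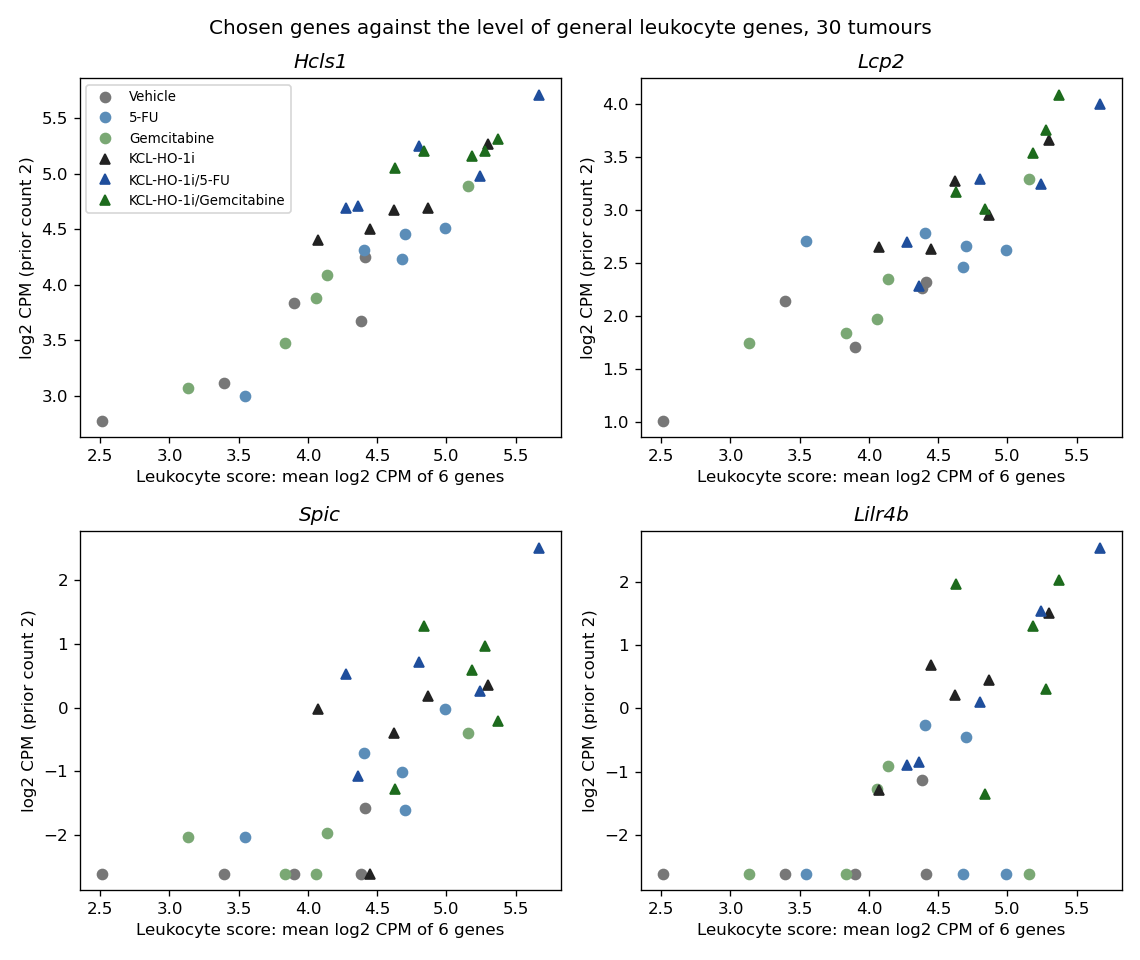
Log2 CPM with a prior count of 2 (y axis) of Hcls1, Lcp2, Spic and Lilr4b against the leukocyte score, the mean log2 CPM of the 6 general genes (x axis), with 1 point per tumour, circles for groups without and triangles for groups with KCL-HO-1i. Hcls1 follows the score most closely (within-group r = 0.912), and the flat rows of points in the lower panels are libraries with no reads.

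Genes whose level ran most like that of the chosen genes were ranked by Spearman rho over the 30 libraries, as a description. For Hcls1 these were Clec4n (0.952), Bin2 (0.914), Slc11a1 (0.911), Cd86 (0.911) and C1qb (0.901), with Lcp2 at rank 30. For Lcp2 they were Tmem8 (0.907), Fli1 (0.892), Apbb1ip (0.891), Gpr34 (0.887) and Tbxas1 (0.886), with Hcls1 at rank 15. The gene most like Spic was Hcls1 (0.841), before Clec4n (0.841), B430306N03Rik (0.840), Neurl3 (0.830) and the iron exporter gene Slc40a1 (0.823). For Lilr4b they were Hpgds (0.790), Hk3 (0.780), Tnfrsf13b (0.760), Cyp4v3 (0.757) and Fkbp7 (0.754). Spic and Lilr4b were less alike, with a rho of 0.521. These values include the differences between groups.

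Per length, the members differed widely in level. In vehicle, CPM per kilobase of exon was 28.0 for Tyrobp, 6.99 for Laptm5, 6.61 for Coro1a, 4.82 for Hcls1, 4.14 for Itgb2 and 2.23 for Vav1. It was 0.837 for Lcp2, 0.580 for Ptprc, 0.0107 for Lilr4b and 0.00883 for Spic. The length was the union of all annotated exons of a gene, 18313 bases for Ptprc and 4459 for Lcp2. The order of the genes therefore depends on the annotation. Without the length, the vehicle mean was 10.6 CPM for Ptprc and 3.73 CPM for Lcp2. From Laptm5 to Itgb2 the steps between neighbours were smaller than the SDs over 5 libraries of 3.59 for Laptm5, 2.42 for Coro1a, 1.91 for Hcls1 and 1.98 for Itgb2. The step between Lcp2 and Ptprc was close to their SDs of 0.281 and 0.237. Lilr4b and Spic in vehicle were each read in 1 library.

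Mouse codes 69, 74 and 84 were the only ones with libraries both with and without the inhibitor. Within code 69, Hcls1 was 7.82 CPM in a 5-FU library and 25.5 CPM in a KCL-HO-1i library. Within code 74 it was 19.8 CPM with 5-FU and 31.4 and 37.9 CPM with KCL-HO-1i/5-FU, and within code 84 it was 14.1 CPM in vehicle and 36.8 CPM with KCL-HO-1i/Gemcitabine. Lcp2, Spic and Lilr4b were likewise higher in each inhibitor library of these codes, such as Lcp2 with 6.35 and 9.55 CPM in code 69. In codes 69 and 84 the chemotherapy differed as well, and only code 74 differed in the inhibitor alone. With the code as a covariate, the average log2 fold change was 1.47 for Hcls1, 1.25 for Lcp2 and 1.498 for Ptprc. Over the 6 general genes it ran from 0.77 for Vav1 to 1.85 for Itgb2. In that fit no gene of the table passed the threshold. The same libraries and contrast chose Hcls1, Lcp2, Spic and Lilr4b, so their values within codes and with the code as a covariate are descriptions.

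The pathways around the members were described from gene lists, with counts in the inhibitor average beside the background of 13.7% with a higher level at an unadjusted p under 0.05 and a median log2 fold change of all genes of -0.00069. Of 20 tested genes of immunoreceptor signalling, the setting of Lcp2 and Vav1, 10 had such a p in the higher direction and 0 in the lower, with a median of 0.48. Its leading genes were the adaptor gene Fyb (0.85), the kinase gene Btk (0.97) and Rasgrp4 (1.15). Of 20 leukocyte actin regulators, the setting of Hcls1 and Coro1a, 14 had such a p and the median was 0.69, led by Was (0.85), the integrin activator gene Fermt3 (0.80) and Cyth4 (0.90). None of these 40 genes passed the adjusted threshold of edgeR.

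Of 17 genes of iron-recycling macrophages, the setting of Spic, 3 passed the adjusted threshold of edgeR, all higher (0.0512% of all tested genes, higher). In this list 13 had an unadjusted p under 0.05, all higher, with a median of 0.97. The 3 past the adjusted threshold were Hmox1, which encodes HO-1, at 2.42, the iron exporter gene Slc40a1 at 1.501 and the phagosomal metal transporter gene Slc11a1 at 1.69. All gene lists were chosen with earlier results of these data known, and the same average chose Spic. These counts are therefore descriptions. Of 20 leukocyte immunoglobulin-like and other paired receptors, the setting of Lilr4b, 11 had an unadjusted p under 0.05. The median was 0.73, led by Clec4a2 (1.15), Fcgr3 (0.93) and Cd300lb (1.45). Of 19 ETS and other leukocyte transcription factors, 11 had such a p and the median was 0.53, led by Fli1 (1.28), Maf (1.51) and Mitf (0.70). None of the last 39 passed the adjusted threshold of edgeR, whose count over all lists moved from 3 to 73 with DESeq2, to 23 with limma-voom and to 74 without Gemcitabine replicate 5.

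Markers of several cell types had higher values in the same average, none past the adjusted threshold of edgeR, and their part in the results was not tested. Of 14 macrophage markers, 13 had an unadjusted p under 0.05 in the higher direction, with a median of 0.78 and C1qb (0.79), Cx3cr1 (0.77) and C1qc (0.80) in the lead, and their summed level ran from 261.1 to 1342 CPM in vehicle and from 897.6 to 2310 CPM with KCL-HO-1i. Of 9 T cell markers 2 had such a p, with a median of -0.06 and Thy1 (1.14) in the lead. Thy1 is not specific to T cells here, since the study also used it to identify cancer-associated fibroblasts, among cells without CD45. The count was 1 of 5 for NK cells, 3 of 7 for neutrophils, 1 of 7 for dendritic cells, 5 of 5 for mast cells (median 1.64, Tpsb2 at 2.21) and 0 of 6 for erythroid cells (median -0.48). The neutrophil genes Ly6g and Mpo were at 0 in 28 and 25 of 30 libraries, and of the B cell list only Cd22 (0.97) was tested.

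Markers of cells outside the leukocyte lineage also differed at the unadjusted p, with 0 past the adjusted threshold of edgeR. In the average, 8 of 8 markers had an unadjusted p under 0.05 in the higher direction for adipocytes (median 2.28), skeletal muscle (median 3.31, Myh4 at 3.85) and fibroblasts (median 1.59, Fap at 2.03), as did 6 of 8 for endothelium (median 0.76, Cldn5 at 1.60). These medians differed by background. Skeletal muscle markers had a median of 6.97 on vehicle and 5.64 on gemcitabine, but of -2.50 on 5-FU with 0 of 8 positive. Adipocyte markers had medians of 4.21, 2.45 and 0.11 on vehicle, gemcitabine and 5-FU, and mast cell markers of 3.53, 1.70 and -0.10. Fibroblast markers were positive for 8 of 8 on each background. The interaction with 5-FU had an unadjusted p under 0.05 in the negative direction for 7 of 8 skeletal muscle, 3 of 8 adipocyte, 3 of 5 mast cell and 0 of 8 fibroblast markers, 0 of them past the adjusted threshold of edgeR. On 5-FU the log2 fold changes of the chosen genes were 0.93 (SE 0.30) for Hcls1, 0.58 (SE 0.33) for Lcp2, 2.35 (SE 0.91) for Spic and 2.95 (SE 1.09) for Lilr4b. Adipocyte markers summed to between 41.0 and 398.5 CPM in vehicle and between 42.6 and 8031 CPM with KCL-HO-1i. Of 8 mammary epithelium markers 0 were higher and 1 was lower at that p (9.22% of all genes, lower), with a median of -0.09. Without the 2 libraries highest in skeletal muscle markers, a fit chosen after seeing the data, Hcls1 gave 1.07, Lcp2 0.91, Spic 3.21, Lilr4b 3.66 and Ptprc 0.66, and 7 genes of the table were called in place of 8. Of the 4 chosen genes 3 kept an adjusted p under 0.05 in it, and Lcp2 did not (0.1078 by edgeR). That fit repeats the contrast that chose them and is not independent of the choice.

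**Figure D5:**
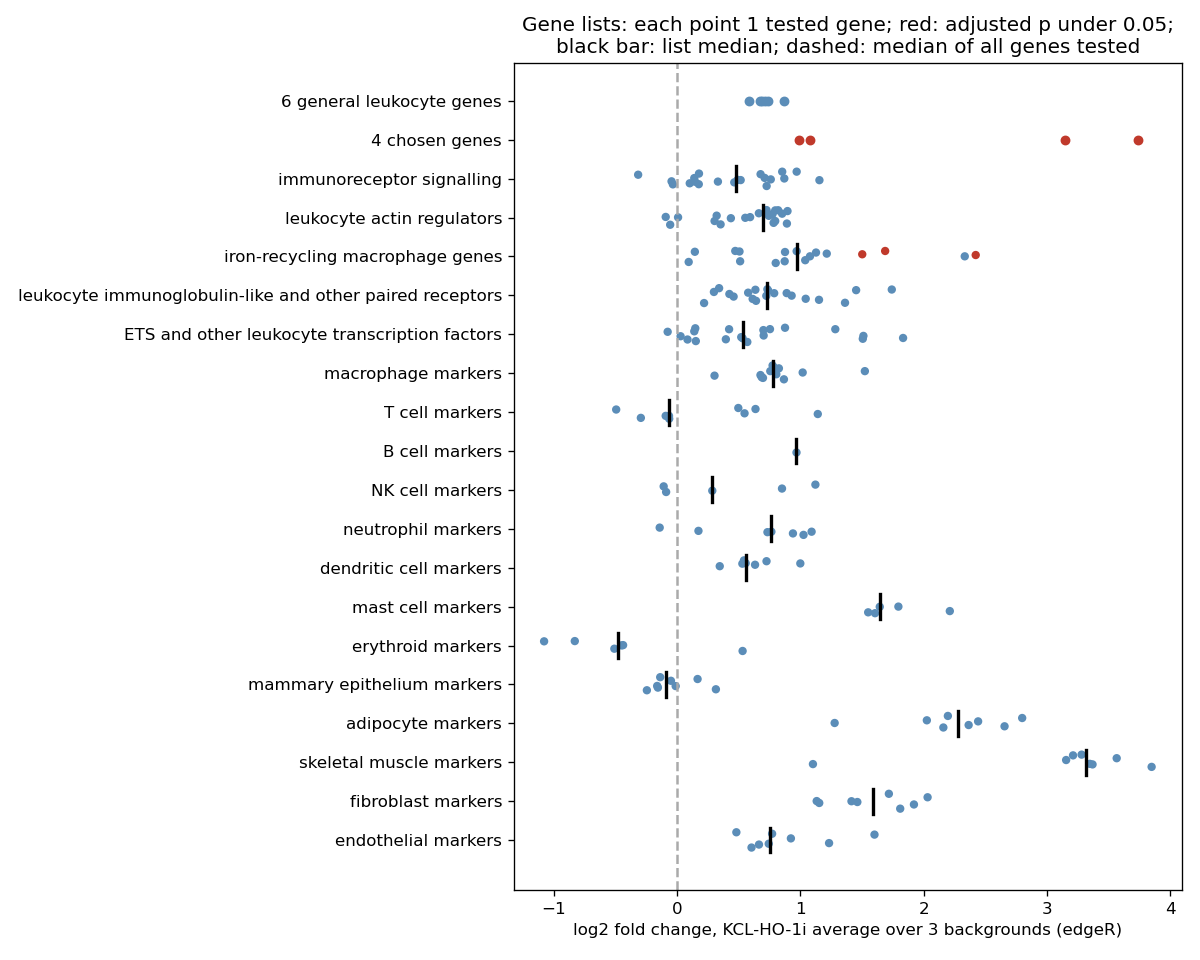
Log2 fold change in the KCL-HO-1i average (x axis, edgeR) of each tested gene of 18 lists and of the 10 members (y axis), with red points for an adjusted p under 0.05, black bars for list medians and a dashed line for the median of all genes, -0.00069. The upper 5 lists, of pathways around the members, lie mostly right of the line with medians from 0.48 to 0.97, T cell markers straddle it, and skeletal muscle markers lie farthest right with a median of 3.31.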

How the data were processed

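RNA-seq libraries were made by the authors from total RNA of 30 tumours with a stranded kit. The submitters' processing notes name FastQC 0.11.9, STAR 2.7.9a, Salmon 1.9.0, DESeq2 and the mm10 build, and the methods add tximport. The annotation release is not given in the sources used here. The deposited values are expected counts (estimated counts per gene, unscaled), although the methods speak of TPM counts: library totals differ and 38% of values are not whole. They were rounded.

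The main test was the one in edgeR 4.0.16 under R 4.3.3 (TMM, quasi-likelihood with robust dispersion, filterByExpr with a minimum count of 10, 6 group means, all 30 libraries), two-sided, with Benjamini-Hochberg adjustment over 13663 genes and a threshold of 0.05. Replicates are separate mice per the labels, and the p-values measure the spread between tumours. Libraries of a group were checked for duplicates by a chi-square over 60 pairs (lowest value per degree of freedom 20.7). Correlations used log2 CPM with a prior count of 2 and permutation within groups (100000 draws). Fold changes were tested on simulated data.

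Members and gene lists were chosen with earlier results of these data known. Named genes were the members, per list the genes past the threshold or else up to 3 with the smallest p, the 5 genes most like each chosen gene, the 3 next outside the threshold and paralogs. Coordinates are GENCODE on GRCm38, and promoters are RefSeq on GRCm38.p6. Alternatives were DESeq2 1.42.0, limma-voom (limma 3.58.1, sample quality weights), RLE, an unfiltered table, a filter on means of 50 counts, a block for replicate number, mouse code or leukocyte score as covariate, only the groups compared, 0.5 as prior count and every library left out singly. Leaving out 2 libraries together, and the alternatives for the levels relative to the general genes, were chosen after seeing the data.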

Additional observations from a re-analysis of the deposited data

Results flagged for a closer look

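In 8 of 60 combinations of gene and group, 1 tumour lay far from the other 4 of its group, with a gap of more than 0.71 of the whole range. Chance flags about 1 in 20 groups of normally distributed values, which CPM with many zeros are not, and the genes share libraries. For Spic and Lilr4b in vehicle, with 4 libraries at 0, the gap is the whole range. The number flagged is therefore not read as an excess. Hcls1 was low in 5-FU replicate 4, at 7.82 CPM against 18.7 CPM in the nearest, and high in KCL-HO-1i replicate 3, at 38.5 CPM against 25.6 CPM. Gemcitabine replicate 5 stood high for Lcp2 (9.64 CPM against 4.94 CPM), Spic (0.596 CPM against 0.0916 CPM) and Itgb2 (36.4 CPM against 10.5 CPM). KCL-HO-1i/5-FU replicate 3 stood high for Spic, at 5.55 CPM against 1.48 CPM. In vehicle, Spic was read in replicate 4 alone (0.170 CPM) and Lilr4b in replicate 2 alone (0.291 CPM), both near the floor of 3 reads.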

How the results depend on the processing

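In the KCL-HO-1i average edgeR called 8 genes, DESeq2 1139, limma-voom 267 and edgeR with the mouse code 0. Leaving out single libraries gave 3 (without Vehicle replicate 5) to 1130 genes (without Gemcitabine replicate 5). Of the general leukocyte genes 0 were called, 4 by DESeq2 and 2 by limma-voom, and 0 to 6 with single libraries left out. List genes called went from 3 to 73 with DESeq2, 23 with limma-voom and 0 with the mouse code, and from 2 to 74 with single libraries left out. With the leukocyte score as a covariate the log2 fold change of Hcls1 moved from 1.08 to 0.55 and that of Lcp2 from 0.99 to 0.44. With single libraries left out they ran from 1.00 to 1.18 and from 0.89 to 1.10. Of the 4 chosen genes 2 were past the threshold with a mean of at least 50 counts, which left Spic and Lilr4b untested, and 0 with the mouse code or the leukocyte score. The within-group r of Lilr4b was 0.389 (no longer past the threshold) with a prior count of 0.5 and 0.346 to 0.527 with single libraries left out. Replicate numbers did not pair the tumours (mean correlation of residuals 0.00284 over 75 pairs, -0.583 to 0.48), and with the replicate number as a block 12 genes were called. Causes were not tested, and no listed result changed direction. Below about 0.3 CPM, as for Spic and Lilr4b without the inhibitor, counts of a few reads limit every fold.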
